A study of Mus musculus with 20 samples.

Results

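The CXC and CX3C chemokines described here are 10 ligand genes, found by their symbols among the 27179 genes of a bulk RNA-seq table of mouse adipose progenitor cells. They are Cxcl1, Cxcl2, Cxcl5, Cxcl9, Cxcl10, Cxcl12, Cxcl13, Cxcl14, Cxcl16 and Cx3cl1. All 10 reached the mean of 10 normalized reads asked of a gene, as did 13057 genes in all. The cells, PDGFRb+ and labelled APCs, were taken from male C57BL/6 mice, from inguinal white adipose tissue, a fat pad under the skin of the groin. They formed 4 groups of 5 libraries, made of DPP4+ cells after 24 h at 6 °C, DPP4+ cells at 22 °C, DPP4- cells after 24 h at 6 °C and DPP4- cells at 22 °C. No transgene or drug is named in the labels for any group, and the animals' age and the number of mice behind a library are not stated there. The labels do not say that the 5 libraries of a group came from separate animals. The p-values therefore judge differences against the spread between these libraries, which may be in part technical.

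Chemokines are small secreted proteins that guide cells along a gradient by binding G protein-coupled receptors. In mice Cxcl1, Cxcl2 and Cxcl5 encode ligands of CXCR2 that draw neutrophils, and Cxcl9 and Cxcl10 encode interferon-inducible ligands of CXCR3 that draw activated T cells and NK cells. Cxcl12 (ligand of CXCR4 and of the scavenging receptor ACKR3), Cxcl13 (ligand of CXCR5, which draws B cells) and Cxcl14 are called homeostatic, since tissues make them without inflammation. Cxcl16 and Cx3cl1 differ from the rest in being made as transmembrane proteins that are shed from the cell by proteases. The peptidase DPP4, by which the cells were sorted, is known to trim the amino end of CXCL9, CXCL10 and CXCL12.

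In the RefSeq annotation of GRCm38 most of these genes lie on chromosome 5. The CXCR2 ligands are neighbours there, with Cxcl5 (Entrez 20311) at chr5:90759298-90761625, Cxcl1 (14825) at chr5:90891245-90893121 and Cxcl2 (20310) at chr5:90903899-90905938. The CXCR3 ligands Cxcl9 (17329) at chr5:92321331-92328079 and Cxcl10 (15945) at chr5:92346638-92348889 follow, and Cxcl13 (55985) lies at chr5:95956939-95961068. The other 4 lie on other chromosomes, Cxcl12 (20315) at chr6:117168535-117181368, Cxcl14 (57266) at chr13:56288643-56296811, Cxcl16 (66102) at chr11:70454389-70459984 and Cx3cl1 (20312) at chr8:94772180-94782427.

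The sort was visible in Dpp4 itself, with 7871 to 13270 normalized reads in DPP4+ cells (6 °C), 7170 to 9994 in DPP4+ cells (22 °C), 37.8 to 137 in DPP4- cells (6 °C) and 52.2 to 105 in DPP4- cells at 22 °C. General progenitor markers (7 genes, among them Pdgfra and Cd34) summed to between 39073 and 55338 normalized reads in every library, but single markers differed between groups. In DPP4+ cells 3 of the 7 fell in the cold and none rose (limma), where 22.6% of all genes were lower and 23.5% higher. Pdgfrb, the sort marker, averaged 1505 ± 80.7 normalized reads in DPP4+ cells (6 °C), 2942 ± 226 in DPP4+ cells (22 °C), 4124 ± 543 in DPP4- cells (6 °C) and 4126 ± 333 in DPP4- cells at 22 °C, and Pdgfra 5287 ± 462, 11512 ± 419, 10676 ± 1323 and 9894 ± 641 in the same order (SD, n = 5 each). The 4 pan-leukocyte markers, Ptprc among them, summed to 5.24 to 15.5 normalized reads in DPP4+ cells (6 °C), 8.68 to 14.5 in DPP4+ cells (22 °C), 2.47 to 192 in DPP4- cells (6 °C) and 12.3 to 51.6 in DPP4- cells at 22 °C. Depth was 8.49 to 18.8 M assigned reads per library (1 M is 1e+06 reads). A pair of libraries stood apart within their groups. Log2 deviations of replicate 5 of DPP4+ cells at 6 °C from the mean of its group's other libraries had an SD of 0.376 over all tested genes. The other 4 had 0.213 to 0.305 by the same measure, and DPP4- libraries had 0.318 to 0.416. Replicate 2 of DPP4- cells at 6 °C had 1376 normalized reads of 8 neutrophil and mast cell markers, against 4.94 to 75.3 for the other 4.

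The 250 bases upstream of the RefSeq transcription start (GRCm38.p6) are printed for 2 ligand pairs whose members deviated together from library to library, as described further on. The windows are chr5:90890995-90891244 (plus strand) for Cxcl1, chr5:90903649-90903898 (plus strand) for Cxcl2, chr5:92328080-92328329 (minus strand) for Cxcl9 and chr5:92348890-92349139 (minus strand) for Cxcl10. Each is written 5′ to 3′ along the gene, and capitals mark matches, on either strand, to the kappaB consensus of NF-kB or to the interferon-stimulated response element, searched as GAAA, any 2 bases and GAAA.
Cxcl1: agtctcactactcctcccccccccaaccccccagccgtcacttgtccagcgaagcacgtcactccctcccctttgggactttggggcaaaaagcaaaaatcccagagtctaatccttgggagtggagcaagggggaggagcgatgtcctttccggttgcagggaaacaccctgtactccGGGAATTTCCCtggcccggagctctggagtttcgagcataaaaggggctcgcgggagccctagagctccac
Cxcl2: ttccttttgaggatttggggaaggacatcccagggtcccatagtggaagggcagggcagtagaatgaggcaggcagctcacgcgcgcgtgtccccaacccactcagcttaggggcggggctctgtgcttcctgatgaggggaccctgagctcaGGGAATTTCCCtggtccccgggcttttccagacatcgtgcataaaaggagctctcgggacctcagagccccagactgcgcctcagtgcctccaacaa
Cxcl9: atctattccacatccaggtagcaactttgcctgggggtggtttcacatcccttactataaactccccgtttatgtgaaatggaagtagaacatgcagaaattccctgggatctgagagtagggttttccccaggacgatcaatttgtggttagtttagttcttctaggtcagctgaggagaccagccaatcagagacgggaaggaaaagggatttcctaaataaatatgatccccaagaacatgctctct
Cxcl10: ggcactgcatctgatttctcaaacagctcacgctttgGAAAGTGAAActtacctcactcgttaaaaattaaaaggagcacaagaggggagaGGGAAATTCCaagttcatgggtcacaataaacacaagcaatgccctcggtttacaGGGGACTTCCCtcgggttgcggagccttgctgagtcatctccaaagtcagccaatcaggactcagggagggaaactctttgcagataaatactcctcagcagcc
Cxcl1 and Cxcl2, neighbours on chromosome 5, hold the same run GGGAATTTCCC, at bases -71 to -61 in Cxcl1 and -97 to -87 in Cxcl2, counted back from the start. That run counts as 2 overlapping kappaB matches. The Cxcl10 window holds GAAAGTGAAA at -213 to -204, a kappaB match at -159 to -150 and 2 overlapping kappaB matches at -104 to -94. The Cxcl9 window holds neither motif. Of 32851 windows of this length in the RefSeq table, 7.25% hold the kappaB consensus and 2.98% hold the interferon element. Among the other members, 4 had a window in that table, and only that of Cxcl14 held one of these motifs, the interferon element at -172 to -163. A match says only that these letters stand in the window.

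Levels per kilobase of exon differed widely among the 10 ligands. Cxcl1 was the highest in each of the 4 groups, with 6389 ± 1017 normalized reads per kb in DPP4+ cells (6 °C), 6613 ± 2295 in DPP4+ cells (22 °C), 14696 ± 3712 in DPP4- cells (6 °C) and 20566 ± 4549 in DPP4- cells at 22 °C (SD, n = 5 each). Cx3cl1 was the lowest in each, with means of 6.30 to 7.88 normalized reads per kb. Between these ends the order depended on the group. In DPP4+ cells at 6 °C, Cxcl14 (1779 ± 344 normalized reads per kb) and Cxcl13 (1097 ± 231) came next with overlapping ranges. The next 3, Cxcl5 (422), Cxcl12 (373) and Cxcl2 (326), also overlapped, and Cxcl10, Cxcl16 and Cxcl9 followed, each apart from its neighbours. In DPP4+ cells at 22 °C, Cxcl13 (944 ± 293 normalized reads per kb) and Cxcl12 (842 ± 71.9) overlapped in the places after Cxcl1, and Cxcl2, Cxcl10 and Cxcl14 overlapped after them at 366, 277 and 262. Cxcl5 followed at 118, apart from Cxcl14 and from Cxcl16 at 91.5.

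In DPP4- cells Cxcl14 was second at both temperatures, with 8570 ± 670 normalized reads per kb at 6 °C, and 10093 ± 2022 at 22 °C (SD, n = 5 each). Its libraries at 6 °C (7488 to 9300) came close to those of Cxcl1 (9321 to 19584) without overlap. Cxcl10 came next at both, at 1814 and 2186. At 6 °C Cxcl12, Cxcl13 and Cxcl9 followed, each overlapping its neighbours, and the highest library of Cxcl12 (1619) just passed the lowest of Cxcl10 (1617). At 22 °C Cxcl12 and Cxcl9 overlapped in the next places, and the highest library of Cxcl13 (778) just passed the lowest of Cxcl9 (767). The summed level of the 10 ligands was 21716 ± 1424 normalized reads in DPP4+ cells (6 °C), 22829 ± 4404 in DPP4+ cells (22 °C), 64184 ± 9466 in DPP4- cells (6 °C) and 78157 ± 11629 in DPP4- cells at 22 °C (SD, n = 5 each). Cxcl1 made up 55.0 ± 6.45% of that sum in DPP4+ cells (6 °C), 53.1 ± 8.18% in DPP4+ cells (22 °C), 42.5 ± 5.80% in DPP4- cells (6 °C) and 49.0 ± 3.39% in DPP4- cells at 22 °C. The mix around it differed with temperature in DPP4+ cells, where Cxcl14 held 15.1 ± 3.51% of the sum at 6 °C and 2.16 ± 0.461% at 22 °C, and Cxcl12 held 14.1 ± 2.46% at 6 °C and 31.3 ± 7.75% at 22 °C.

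**Figure D1:**
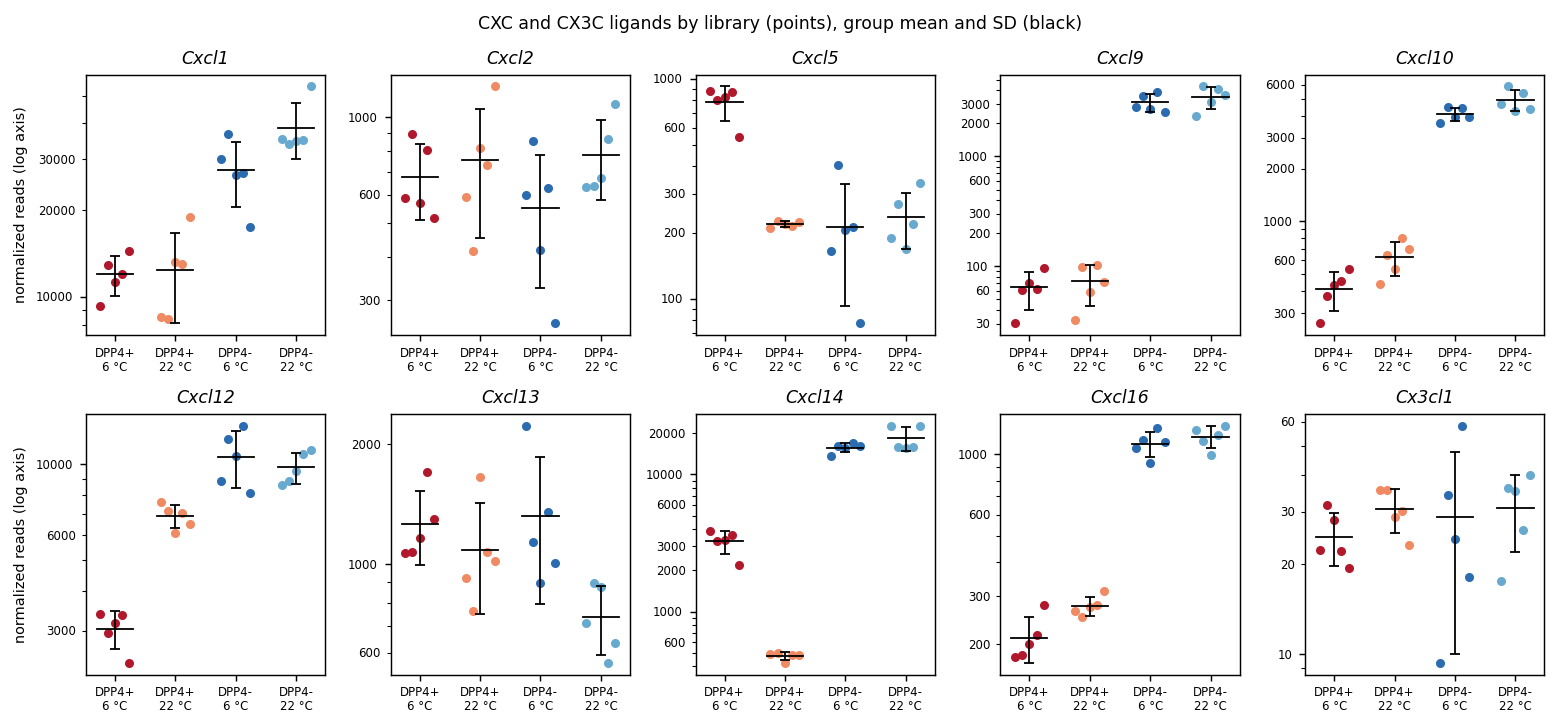
Normalized reads (log axis) of the 10 ligands in each library; black lines give the group mean and SD of 5 libraries. Cxcl14 and Cxcl5 are higher and Cxcl12 lower in all 5 DPP4+ libraries at 6 °C than in any DPP4+ library at 22 °C, and Cxcl9, Cxcl10 and Cxcl16 are lower in all 10 DPP4+ libraries than in any DPP4- library.

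Which ligands responded to cold was asked first in DPP4+ cells. There 2 of the 10 rose at 6 °C, Cxcl14 and Cxcl5, and 3 fell, Cxcl12, Cxcl10 and Cxcl16. Of all 13057 genes tested, 46.1% were called in this comparison, 23.5% higher and 22.6% lower (adjusted p under 0.05, limma), so the members' share lies near the background. The libraries did not overlap for 3 of them, against 38.4% of all genes. The median log2 difference of the 10 was -0.13, against 0.01 for all genes. In bulk samples a smaller share of cells that express a ligand and less of its RNA per cell cannot be told apart.

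Cxcl14, a homeostatic ligand that mouse brown fat is known to release, had 3836, 3257, 3353, 3600 and 2201 normalized reads in DPP4+ cells at 6 °C. At 22 °C it had 490, 502, 425, 487 and 486 in DPP4+ cells. The groups were far apart, and replicate 5 was the lowest of the cold libraries. The ratio of means was 6.80, and the log2 difference was 2.74 (95% interval 2.47 to 3.01; adjusted p = 2.07e-13, limma). Without replicate 5 of the cold group the log2 difference was 2.87.

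Cxcl12, which retains CXCR4-bearing cells in their niche, had 3384, 2951, 3179, 3362 and 2384 normalized reads in DPP4+ cells at 6 °C. The 22 °C libraries of DPP4+ cells held 7630, 7144, 6107, 7038 and 6522. Every cold library lay below every 22 °C library. The mean was 2.26-fold lower at 6 °C, a log2 difference of -1.18 (95% interval -1.43 to -0.94; adjusted p = 2.46e-08, limma), and the difference was -1.10 without replicate 5. Over the 20 libraries the deviation of Cxcl12 from its group mean had r = -0.72 with that of the summed immediate early genes, which respond to tissue dissociation, and replicate 5 had the highest such sum of its group, at 68015 normalized reads against 38176 to 50782. The part of these genes in the Cxcl12 difference was not tested, and their sum itself was 50455 ± 10904 at 6 °C and 49292 ± 6141 at 22 °C in DPP4+ cells (SD, n = 5 each), with 0 of the 12 genes called in either direction by limma. Markers of pericytes and smooth muscle (8 genes) moved the same way as Cxcl12 in their sum, but not gene by gene. They summed to 5797 ± 1079 normalized reads at 6 °C and 10392 ± 1047 at 22 °C in DPP4+ cells, and to 5633 ± 799 and 4549 ± 572 in DPP4- cells (SD, n = 5 each). In DPP4+ cells 4 of the 8 fell in the cold (3 without replicate 5) and 2 rose, where 46.1% of all genes were called. Kcnj8 was among those that rose, with 37.5 to 52.4 normalized reads at 6 °C and 16.2 to 23.2 at 22 °C. Myh11, a smooth muscle myosin gene, averaged 22.3 ± 4.54 at 6 °C and 77.0 ± 7.12 at 22 °C. Acta2, which made up most of the sum, averaged 3083 ± 643 and 6046 ± 641 but was not called (adjusted p = 0.0649, limma). The sort marker Pdgfrb was likewise lower in the cold, as given above. The part of these markers in the Cxcl12 and other cold differences was not tested.

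Cxcl13, the B cell attractant, had 1069, 1071, 1165, 1706 and 1297 normalized reads in DPP4+ cells at 6 °C and 922, 761, 1649, 1075 and 1019 in DPP4+ cells at 22 °C. The groups overlapped, and the log2 difference of 0.24 was not called (95% interval -0.24 to 0.73; adjusted p = 0.414, limma).

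Among the CXCR2 ligands, Cxcl5 had 880, 806, 827, 874 and 544 normalized reads in DPP4+ cells at 6 °C. Its 5 libraries at 22 °C lay close together, at 211, 227, 220, 215 and 223. The groups did not overlap, with replicate 5 again the lowest in the cold. The ratio of means was 3.58, and the log2 difference was 1.82 (95% interval 1.19 to 2.44; adjusted p = 6.73e-05, limma), or 1.94 without replicate 5. Cxcl1, the most abundant ligand, had 9270, 12875, 11309, 12024 and 14421 normalized reads in DPP4+ cells at 6 °C and 8523, 8400, 13184, 13004 and 18885 at 22 °C. The ranges overlapped throughout, and the interval of the log2 difference ran from -0.45 to 0.45. Cxcl2 had 587, 893, 571, 806 and 515 normalized reads in DPP4+ cells at 6 °C and 593, 415, 816, 732 and 1225 at 22 °C, which overlapped likewise, with a log2 difference of -0.11 (95% interval -0.75 to 0.54).

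Both CXCR3 ligands were low in DPP4+ cells. Cxcl10 had 262, 373, 432, 459 and 536 normalized reads at 6 °C and 442, 646, 537, 801 and 694 at 22 °C in DPP4+ cells. The groups overlapped in part, and the mean was 1.51-fold lower at 6 °C, a log2 difference of -0.61 (95% interval -0.96 to -0.26; adjusted p = 0.00582, limma). Cxcl9 had 30.2, 60.5, 70.9, 62.2 and 97.2 normalized reads at 6 °C and 32.3, 99.5, 57.9, 103 and 71.3 at 22 °C in DPP4+ cells, and was not called (log2 difference -0.16, 95% interval -0.81 to 0.49). Cxcl10 shares 133 exon bases with Art3 on the opposite strand, a gene with a mean of 93.3 normalized reads, and since the labels do not give the strand setting those reads cannot be told apart.

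Of the shed transmembrane ligands, Cxcl16, the ligand of CXCR6, had 179, 183, 200, 216 and 278 normalized reads in DPP4+ cells at 6 °C and 265, 252, 274, 279 and 313 at 22 °C. The cold libraries were lower except for replicate 5, which lay inside the 22 °C range. The mean was 1.31-fold lower at 6 °C (log2 difference -0.40, 95% interval -0.61 to -0.19; adjusted p = 0.0021, limma). Cxcl16 shares 552 exon bases with Zmynd15 on the opposite strand (mean 208 normalized reads), with the same limit. Cx3cl1, the ligand of CX3CR1, was close to the minimum level for testing, at 22.4, 31.6, 28.2, 22.2 and 19.4 normalized reads at 6 °C and 35.4, 35.4, 28.9, 30.1 and 23.3 at 22 °C in DPP4+ cells, and was not called (log2 difference -0.30, 95% interval -0.96 to 0.36).

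The same comparison in DPP4- cells called 0 of the 10 ligands with limma, where 5.22% of all genes were called, 1.98% higher and 3.23% lower. At an unadjusted p under 0.05 limma had 2 (Cxcl1 and Cxcl13), edgeR on the whole reads called 0 after adjustment, and DESeq2 called 1 (Cxcl13). Cxcl13 had 2224, 1136, 898, 1353 and 1008 normalized reads in DPP4- cells at 6 °C and 710, 895, 877, 566 and 635 at 22 °C. The cold libraries all lay above the 22 °C libraries, though by 3 normalized reads at the closest, and 4.87% of all genes had groups that did not overlap. The ratio of means was 1.80 and the log2 difference 0.79 (95% interval 0.30 to 1.28), with an adjusted p of 0.0563 in limma and of 0.0178 in DESeq2. In limma it passed without replicate 3 of DPP4- cells at 6 °C (adjusted p = 0.0412) and without replicate 3 of DPP4+ cells at 22 °C (adjusted p = 0.0386).

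Cxcl1 had 30131, 36721, 26458, 26991 and 17477 normalized reads in DPP4- cells at 6 °C, against 35192, 33937, 34906, 34976 and 53795 at 22 °C. The ranges overlapped, and the log2 difference of -0.50 was not called (95% interval -0.95 to -0.05; adjusted p = 0.183, limma). Cxcl2 had 599, 856, 418, 629 and 258 normalized reads at 6 °C and 633, 637, 673, 867 and 1093 at 22 °C in DPP4- cells, with a log2 difference of -0.58 (95% interval -1.22 to 0.07). Cxcl5 had 165, 406, 205, 213 and 77.4 normalized reads at 6 °C and 190, 269, 168, 218 and 336 at 22 °C in DPP4- cells, with a log2 difference of -0.29 (95% interval -0.92 to 0.33). In each of these 3 genes replicate 2 was the highest and replicate 5 the lowest of the 6 °C libraries. Replicate 2 is the library rich in neutrophil and mast cell markers, and without it the log2 differences were -0.61 for Cxcl1, -0.76 for Cxcl2 and -0.57 for Cxcl5, none of them called. Without replicate 5 they were -0.35, -0.33 and 0.02, so the sign for Cxcl5 rests on that library.

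Cxcl14 had 13680, 15955, 15544, 16991 and 16114 normalized reads in DPP4- cells at 6 °C and 22612, 15915, 15502, 15817 and 22353 at 22 °C. The groups overlapped, with 2 of the 22 °C libraries well above the rest (log2 difference -0.22, 95% interval -0.48 to 0.05). Cxcl12 had 8875, 11982, 10663, 13236 and 8112 normalized reads at 6 °C and 8625, 8896, 9568, 10804 and 11064 at 22 °C in DPP4- cells, again overlapping (log2 difference 0.09, 95% interval -0.15 to 0.34). The other 4 ligands, Cxcl9, Cxcl10, Cxcl16 and Cx3cl1, had log2 differences of -0.28 to -0.09 in DPP4- cells, with intervals that all held 0.

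Whether cold acted differently in the populations was tested as the difference of the cold effects, DPP4+ minus DPP4-. It was called for 3 of the 10 ligands, where 33.2% of all genes were called, 16.8% with a positive and 16.4% with a negative difference. Cxcl14 differed by 2.96 on the log2 scale (95% interval 2.58 to 3.33; adjusted p = 8.74e-11, limma), Cxcl5 by 2.11 (1.22 to 2.99; adjusted p = 0.000835) and Cxcl12 by -1.28 (-1.62 to -0.93; adjusted p = 3.21e-06). Without replicate 5 of DPP4+ cells at 6 °C these were 3.09, 2.24 and -1.19, and without replicate 2 of DPP4- cells at 6 °C they were 2.96, 2.39 and -1.22. For Cxcl10 the effects in DPP4+ and DPP4- cells, -0.61 and -0.26, were not shown to differ (difference -0.34, 95% interval -0.84 to 0.15). For Cxcl16 they were -0.40 and -0.09, and the difference of -0.31 missed the threshold (adjusted p = 0.0942, limma); it passed without replicate 5 of DPP4+ cells at 6 °C (-0.42, adjusted p = 0.00719), without replicate 3 of DPP4- cells at 6 °C (-0.37, adjusted p = 0.0472), with library totals set equal (-0.46, adjusted p = 0.0062) and with sample weights (-0.38, adjusted p = 0.022).

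**Figure D2:**
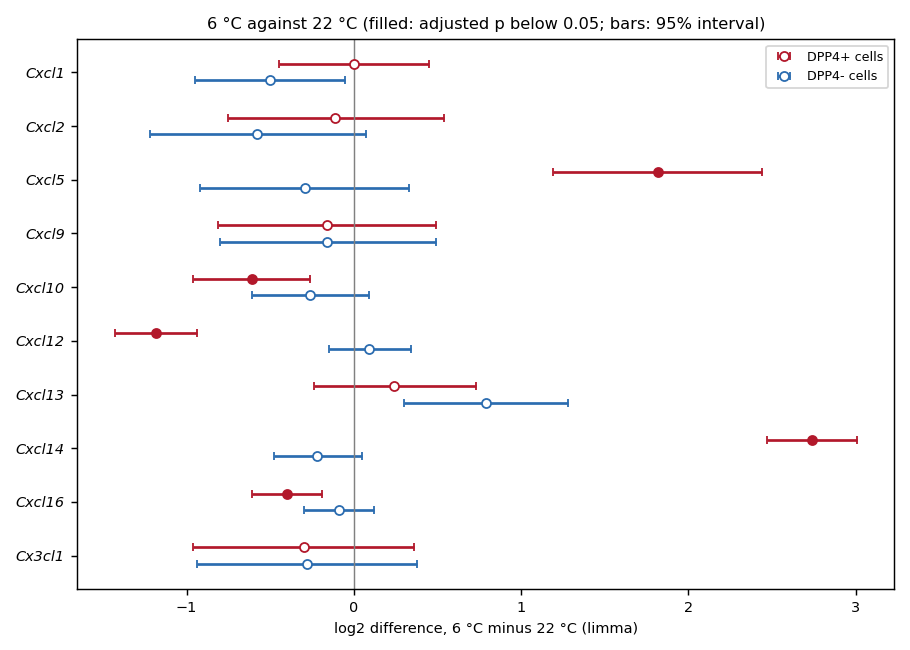
Log2 difference between 6 °C and 22 °C (horizontal axis, limma, with 95% interval) of the 10 ligands in DPP4+ cells (red) and DPP4- cells (blue); filled points have an adjusted p below 0.05. The 5 filled points are all in DPP4+ cells, Cxcl14 at 2.74, Cxcl5 at 1.82, Cxcl16 at -0.40, Cxcl10 at -0.61 and Cxcl12 at -1.18.

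The populations were compared with each other at each temperature. At 6 °C DPP4+ cells had 1 ligand higher, Cxcl5, and 6 lower, Cxcl1, Cxcl9, Cxcl10, Cxcl12, Cxcl14 and Cxcl16. This is 7 of 10 where 74.2% of all genes were called (38.5% higher and 35.7% lower). At 22 °C DPP4+ cells had 1 higher, Cxcl13, and the same 6 lower, again 7 of 10, where 74.9% of all genes were called (38.7% higher and 36.2% lower). The groups did not overlap for 7 ligands at 6 °C (57.1% of all genes) and for 6 at 22 °C (64.8%). Both comparisons rest on how the libraries are scaled, since DPP4- libraries summed to 15.4 to 17.3 M normalized reads and DPP4+ libraries to 10.2 to 12.1 M. With library totals set equal, the median log2 difference of all genes was 0.50 at 6 °C and 0.64 at 22 °C, against 0.03 at both as deposited, and called genes split into 8240 higher and 2461 lower at 6 °C, against 5031 and 4662, and into 9107 and 2039 at 22 °C, against 5052 and 4730.

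The CXCR3 ligands stood far apart between the populations, Cxcl9 farthest of the 10 at both temperatures. Cxcl9 had 30.2 to 97.2 normalized reads in DPP4+ cells and 2827, 3535, 2729, 3887 and 2539 in DPP4- cells (6 °C), a mean 48.3-fold lower in DPP4+ cells. At 22 °C it had 32.3 to 103 in DPP4+ cells and 2313, 4343, 3120, 4119 and 3592 in DPP4- cells, 48.1-fold lower in DPP4+ cells. No library of one population came near the other, and the log2 difference was -5.65 at both temperatures (adjusted p = 1.01e-11 at 6 °C and 1.11e-11 at 22 °C, limma). Cxcl10 had 262 to 536 normalized reads in DPP4+ cells at 6 °C, against 3643, 4469, 3932, 4442 and 3936 in DPP4- cells. At 22 °C it had 442 to 801 in DPP4+ cells and 4676, 5877, 4271, 5411 and 4377 in DPP4- cells. It was 9.91-fold lower in DPP4+ cells at 6 °C and 7.89-fold lower at 22 °C, with log2 differences of -3.34 and -3.00.

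Cxcl14 was 4.82-fold lower in DPP4+ cells at 6 °C and 38.6-fold lower at 22 °C, with log2 differences of -2.29 (95% interval -2.56 to -2.02) and -5.25 (-5.51 to -4.98). Even in the cold the highest DPP4+ library, at 3836 normalized reads, lay well below the lowest DPP4- library, at 13680. Cxcl16 had 179 to 278 normalized reads in DPP4+ cells and 1059, 1126, 925, 1244 and 1106 in DPP4- cells at 6 °C, and 252 to 313 against 1233, 1121, 996, 1177 and 1274 at 22 °C. It was 5.17-fold and 4.20-fold lower in DPP4+ cells at 6 °C and at 22 °C. Cxcl1 was 2.30-fold lower in DPP4+ cells at 6 °C and 3.11-fold lower at 22 °C (log2 differences -1.18 and -1.68), with no overlap at either temperature although its highest DPP4+ library at 22 °C (18885 normalized reads) lay above the lowest DPP4- library at 6 °C (17477).

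Cxcl12 was 3.46-fold lower in DPP4+ cells at 6 °C, with a log2 difference of -1.78 (95% interval -2.03 to -1.53; adjusted p = 4.09e-12, limma). At 22 °C it was 1.42-fold lower, with a log2 difference of -0.50 (adjusted p = 0.00056, limma) that became 0.11 with library totals set equal and 0.12 after quantile normalization, neither of them called. The direction of Cxcl12 at 22 °C therefore depended on the scaling, and its direction at 6 °C did not under the scalings tried. Cxcl5 was 3.69-fold higher in DPP4+ cells at 6 °C (log2 difference 2.05, 95% interval 1.42 to 2.67; adjusted p = 5.76e-06, limma). At 22 °C the DPP4+ libraries of Cxcl5, 211 to 227 normalized reads, lay inside the range of the DPP4- libraries, 168 to 336, and the log2 difference was -0.06 (95% interval -0.69 to 0.56). Without replicate 2 of DPP4- cells at 6 °C, the library rich in neutrophil and mast cell markers, the Cxcl5 difference at 6 °C was 2.33.

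Cxcl13 was 1.47-fold higher in DPP4+ cells at 22 °C, with overlapping groups and a log2 difference of 0.53 (95% interval 0.04 to 1.02; adjusted p = 0.0463, limma). This call was lost (adjusted p of 0.0514 to 0.144) without any 1 of 12 libraries, which are replicates 1, 2, 3 and 5 of DPP4+ cells at 6 °C, replicates 3, 4 and 5 of DPP4+ cells at 22 °C, replicates 2 and 4 of DPP4- cells at 6 °C and replicates 1, 4 and 5 of DPP4- cells at 22 °C. At 6 °C its log2 difference was -0.01 (95% interval -0.50 to 0.47). Cxcl2 differed between the populations by 0.37 at 6 °C (95% interval -0.28 to 1.01) and by -0.10 at 22 °C (-0.75 to 0.54), and Cx3cl1 by 0.00 (-0.66 to 0.66) and 0.02 (-0.64 to 0.68), none of them called. With library totals set equal Cxcl2 at 6 °C was called, at 0.83 (adjusted p = 0.0172, limma).

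**Figure D3:**
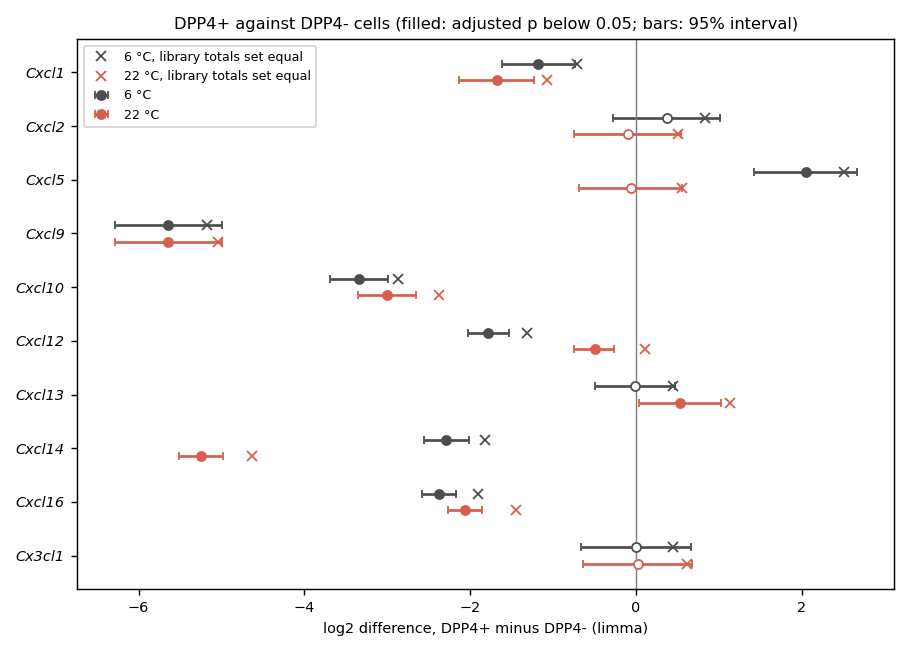
Log2 difference between DPP4+ and DPP4- cells (horizontal axis, limma, with 95% interval) of the 10 ligands at 6 °C (grey) and 22 °C (red); filled points have an adjusted p below 0.05, and crosses give the value with library totals set equal. Cxcl9 stands at -5.65 at both temperatures, Cxcl14 at -2.29 and -5.25, and Cxcl12 at 22 °C moves from -0.50 to 0.11 with the scaling.

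Immediate early genes differed between the populations as well. All 12 listed genes of tissue dissociation and immediate early response were lower in DPP4+ cells at both temperatures, also with library totals set equal. Among all genes 35.7% were lower at 6 °C and 36.2% at 22 °C (limma). The 12 genes summed to 50455 ± 10904 normalized reads in DPP4+ cells against 226793 ± 20818 in DPP4- cells (6 °C), and 49292 ± 6141 in DPP4+ cells against 237162 ± 25839 in DPP4- cells at 22 °C (SD, n = 5 each). Their part in the gaps in Cxcl1, Cxcl9, Cxcl10 and the other ligands was not tested. Markers of macrophages and monocytes (8 genes) summed to 180 to 265 normalized reads in DPP4+ cells and 184 to 551 in DPP4- cells (6 °C), and to 166 to 200 in DPP4+ cells and 221 to 278 in DPP4- cells at 22 °C, and lymphocyte markers (8 genes) to at most 58.6 in any library. Endothelial markers summed to 3308 in DPP4+ and 1217 in DPP4- cells at 6 °C and to 2927 and 1223 at 22 °C (means of 5 libraries). Tek alone made up most of each sum, with means of 2983 and 944 at 6 °C and 2811 and 888 at 22 °C. Most of the 7 endothelial genes tested went the other way. At 6 °C limma called 4 of them with less RNA in the DPP4+ population and 2 with more (median log2 difference -1.53). At 22 °C the counts were 4 and 1 (median -1.73). Lymphatic endothelial and lymph node stroma markers summed to 85.9 in DPP4+ and 36.8 in DPP4- cells at 6 °C and to 17.6 and 38.4 at 22 °C (means of 5 libraries). Flt4 alone made up most of the sum in DPP4+ cells at 6 °C, with a mean of 62.5, and Prox1 most of the rest. The other 4 of the 6 markers had means under 10 in that group, and 2 of them had no read there.

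Within a group, libraries differed in a patterned way. Cxcl1 and Cxcl2 deviated together from their group means over the 20 libraries (r = 0.83, Spearman 0.70, and r = 0.73 without the 2 libraries farthest out in Cxcl1). Replicate 5 of DPP4+ cells at 22 °C was at 1.60 and 1.73 times the geometric group mean of Cxcl1 and Cxcl2, replicate 5 of DPP4- cells at 22 °C at 1.42 and 1.43 times, and replicate 5 of DPP4- cells at 6 °C at 0.65 and 0.51 times. Cxcl3, a further CXCR2 ligand and not a member, followed both (r = 0.83 with Cxcl1 and 0.84 with Cxcl2). Cxcl2 and Cxcl3 share an exact exon stretch of 56 bases, and Cxcl1 shares 23 with each. Only reads that lie wholly within such a stretch could be assigned to either gene. The part of such reads in these correlations was not tested.

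Cxcl9 and Cxcl10 also deviated together (r = 0.89, Spearman 0.81, and r = 0.77 without the 2 libraries farthest out in Cxcl9). Replicate 1 of DPP4+ cells was low in both genes at each temperature, at 0.51 and 0.65 times the geometric group means of Cxcl9 and Cxcl10 at 6 °C and at 0.49 and 0.72 times at 22 °C. Cxcl5 and Cxcl12, which moved in opposite directions with cold in DPP4+ cells, deviated in the same direction within groups (r = 0.70, Spearman 0.70, and r = 0.62 without the 2 libraries farthest out in Cxcl5). These coefficients are descriptions over 20 libraries; the genes of a library share its depth and its scaling factor.

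**Figure D4:**
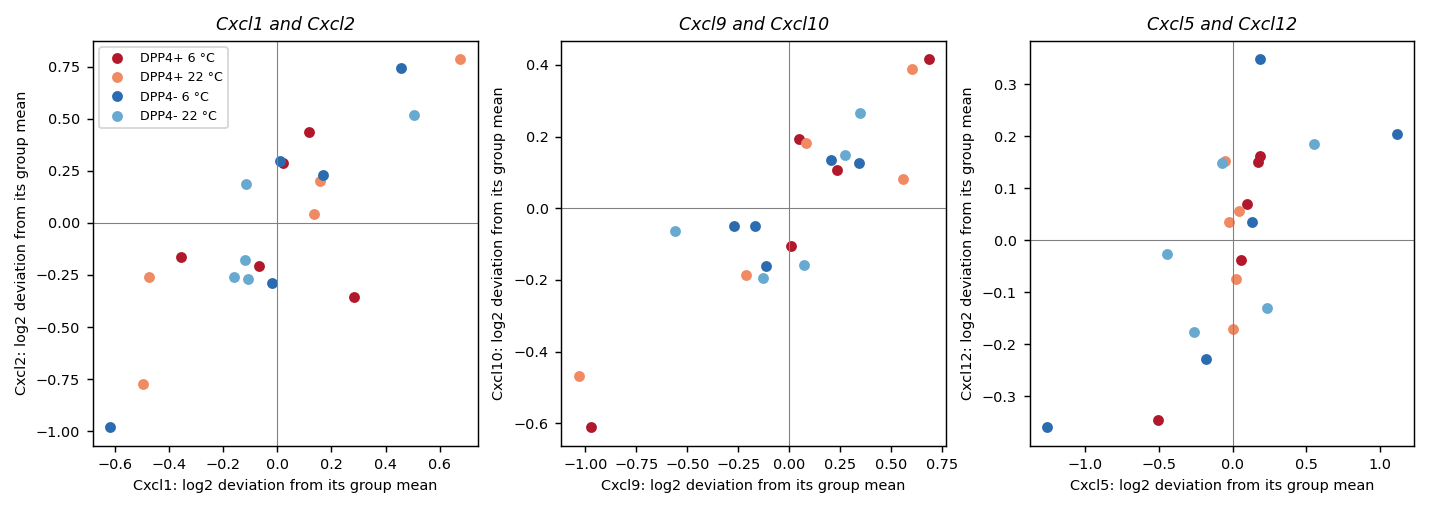
Log2 deviation of each library from its group mean for Cxcl2 against Cxcl1, Cxcl10 against Cxcl9 and Cxcl12 against Cxcl5, coloured by group (20 libraries each). All 3 clouds run from lower left to upper right, with r = 0.83, 0.89 and 0.70.

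The genes whose pattern over the 20 libraries was most like that of a member were named by Pearson's r of log2(value + 1), which rests largely on the differences between the 4 groups. Cxcl1 was closest to Il6 (r = 0.980), which encodes an inflammatory cytokine and had 2533 and 2611 normalized reads in DPP4+ cells (6 °C) and 22 °C and 7262 and 8608 in DPP4- cells. Cxcl5 was closest to Ezr (r = 0.959), which encodes a membrane-cytoskeleton linker, and to Kdr (r = 0.943), which encodes a VEGF receptor. Kdr had means of 251 normalized reads in DPP4+ cells (6 °C), 30.3 in DPP4+ cells (22 °C), 42.6 in DPP4- cells (6 °C) and 40.4 in DPP4- cells at 22 °C. Cxcl9 was closest to the matrix proteoglycan gene Lum (r = 0.996) and to the interferon-inducible GTPase gene Iigp1 (r = 0.995). Cxcl12 was close to Ptger4 (r = 0.973), which encodes a prostaglandin E2 receptor, and Cxcl14 was closest to Cntfr (r = 0.992), a cytokine receptor gene. Cxcl16 was closest to Mme (r = 0.994), a peptidase gene. For Cxcl2, Cxcl13 and Cx3cl1 the closest gene reached r of 0.719 to 0.772.

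Receptors for these ligands were barely detected in the sorted cells. None of the 7 classical receptors, Cxcr1 to Cxcr6 and Cx3cr1, reached a mean of 10 normalized reads over the 20 libraries. Single group means passed 10 for Cxcr4 in DPP4- cells (14.5 at 6 °C and 11.4 at 22 °C). In DPP4+ cells at 22 °C those of Cxcr5 (10.9) and Cx3cr1 (13.0) did so. Cxcr2, the receptor of Cxcl1, Cxcl2 and Cxcl5, had 0 to 2.73 normalized reads in any library, and Cxcr3, the receptor of Cxcl9 and Cxcl10, had 0 to 2.70. Cxcr4, the receptor of Cxcl12, had 1.72 to 4.60 in DPP4+ cells and 7.41 to 24.5 in DPP4- cells (6 °C), and 1.87 to 3.64 in DPP4+ cells and 2.52 to 16.9 in DPP4- cells at 22 °C.

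Atypical receptors bind chemokines without G protein signalling, and all 4 of their genes were higher in DPP4+ cells at both temperatures, under each scaling tried. Among all 13057 genes 38.5% were higher at 6 °C and 38.7% at 22 °C. With library totals set equal, 8240 genes were higher at 6 °C and 9107 at 22 °C. Ackr3, which scavenges CXCL12, had 5684, 7514, 6611, 6346 and 9822 normalized reads in DPP4+ cells and 2768, 2439, 2054, 2166 and 2358 in DPP4- cells at 6 °C. At 22 °C it had 5981, 5637, 7392, 5994 and 7257 in DPP4+ cells and 3003, 2639, 2382, 2195 and 2299 in DPP4- cells. The populations did not overlap, and the log2 difference was 1.59 at 6 °C and 1.37 at 22 °C (adjusted p = 9.47e-11 and 1.26e-09, limma). Ackr2, which takes up inflammatory CC chemokines, had log2 differences of 3.01 and 2.25, and Ackr4, which binds CC chemokines of lymphoid tissue, of 4.21 and 3.68. Ackr4 was at 0 to 2.73 normalized reads in DPP4- cells. Ackr1, which binds CXC and CC ligands alike, differed by 0.33 and 0.26 with overlapping groups (adjusted p = 0.0104 and 0.042, limma). Cold called 0 of the 4 in either population, where 46.1% of all genes were called in DPP4+ cells and 5.22% in DPP4- cells. The difference of the cold effects was called for 1, Ackr2 (0.77, adjusted p = 0.0213, limma), where 33.2% of all genes were called.

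**Figure D5:**
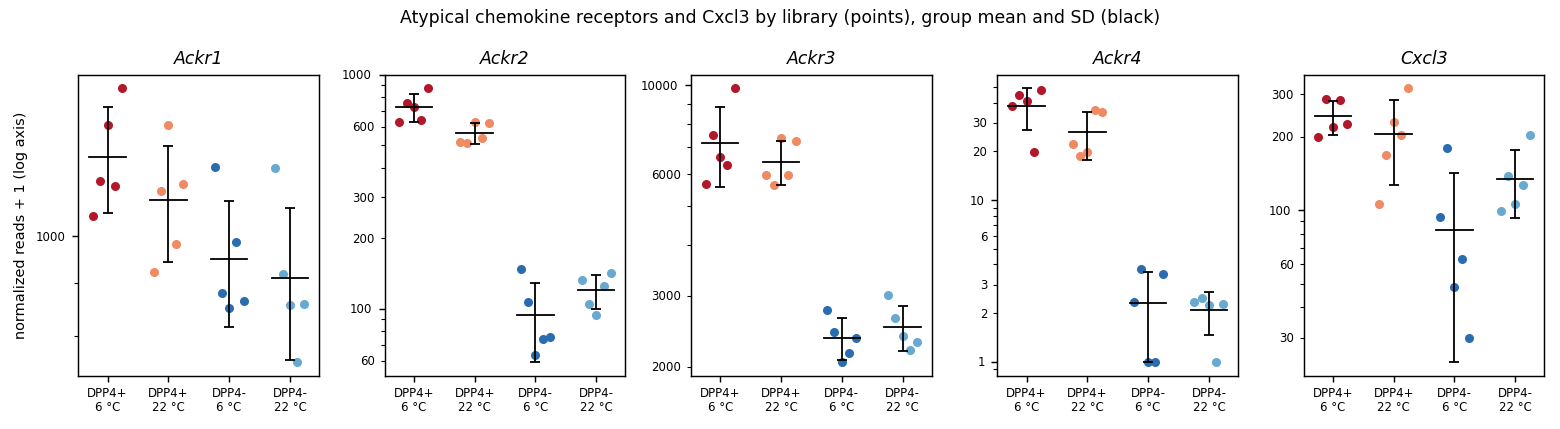
Normalized reads plus 1 (log axis) of the 4 atypical receptor genes and of Cxcl3 in each library, with group mean and SD of 5 libraries in black. Ackr2, Ackr3 and Ackr4 do not overlap between DPP4+ and DPP4- cells, and Ackr1 and, at 22 °C, Cxcl3 do.

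Other CXC ligand genes on the list were near 0 except Cxcl3. Cxcl3 had 199, 285, 218, 282 and 225 normalized reads in DPP4+ cells and 92.5, 179, 47.2, 62.1 and 28.8 in DPP4- cells at 6 °C, apart and 2.96-fold higher in the DPP4+ population (log2 difference 1.81; adjusted p = 0.000263, limma). At 22 °C it had 105, 168, 229, 203 and 316 in DPP4+ cells and 98.6, 137, 105, 126 and 203 in DPP4- cells, which overlapped, and was not called (log2 difference 0.57, 95% interval -0.22 to 1.35), but it was with library totals set equal (1.17, adjusted p = 0.00601, limma). Among enzymes that process chemokines, 8 of 9 were tested. In DPP4+ cells 3 rose in the cold, Mmp2 and Cpm among them, and 2 fell, Adam17 and Cpd, where 46.1% of all genes were called. Cpm, a carboxypeptidase gene, had a mean of 41.2 ± 10.5 normalized reads in DPP4+ cells at 6 °C and 6.98 ± 0.997 at 22 °C (log2 difference 2.37; adjusted p = 2.83e-05, limma), and Adam17, a sheddase gene, differed by -0.29 (adjusted p = 0.0015). Between the populations, limma gave 3 calls in each direction among the 8 tested enzymes at either temperature. The background there was 74.2% of all genes called at 6 °C and 74.9% at 22 °C. Adam10, whose product sheds CXCL16 and CX3CL1, was higher in DPP4+ cells at both temperatures, by 1.08 at 6 °C and 0.99 at 22 °C. Mmp14 went the opposite way, with means of 10340 in the DPP4+ and 16459 in the DPP4- population at 6 °C, as did Mmp2 (34001 and 53763). Adam17 differed by -0.23 at 6 °C, but by 0.24 with library totals set equal.

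The interferon pathway list (12 genes for receptors, JAKs, STATs and IRFs) lies upstream of Cxcl9 and Cxcl10. In DPP4+ against DPP4- cells 10 of the 12 were lower and 2 higher at 6 °C, and 9 were lower and 0 higher at 22 °C, where 74.2% and 74.9% of all genes were called (35.7% and 36.2% lower); with library totals set equal these counts were 8 and 2 at 6 °C and 7 and 4 at 22 °C. Stat2 and Irf9, partners in the interferon-stimulated complex, had log2 differences of -1.80 and -1.38 at 6 °C and -1.56 and -1.23 at 22 °C. Of the 12, where 46.1% of all genes were called in DPP4+ cells and 5.22% in DPP4- cells, cold called 3 higher and 1 lower in DPP4+ cells (1 and 5 with library totals set equal, 3 and 5 without replicate 5) and 0 in DPP4- cells (1 higher with totals set equal).

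The list of IL-1, TNF and IL-17 receptors and adaptors and NF-kB genes (17 genes) lies upstream of Cxcl1, Cxcl2 and Cxcl5. In DPP4+ against DPP4- cells 13 were lower and 1 higher at 6 °C, and 14 lower and 2 higher at 22 °C, against the same shares of all genes. The lean to lower was not seen with library totals set equal, where 8 were lower and 8 higher at 6 °C and 8 and 7 at 22 °C. Myd88, an adaptor of IL-1 and Toll-like receptors, had log2 differences of -1.81 at 6 °C and -1.73 at 22 °C, and Il1r1, the IL-1 receptor gene, of -1.46 and -1.90. Cold called 6 higher and 1 lower in DPP4+ cells (4 and 1 without replicate 5), where 46.1% of all genes were called. The 1 lower gene, Il1rap, which encodes the second chain of the IL-1 receptor, fell by 1.40 on the log2 scale in DPP4+ cells (adjusted p = 2.84e-13, limma) and was also the only one called in DPP4- cells, where it fell by 0.43 (adjusted p = 0.00137); with library totals set equal 4 further genes were called higher in DPP4- cells.

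Of 6 RNA-binding proteins that act on chemokine transcripts, 4 were lower in DPP4+ than in DPP4- cells at 6 °C and 5 at 22 °C, led by Zfp36, which encodes a decay factor of AU-rich transcripts (log2 difference -2.55 and -2.79). The background is again 74.2% and 74.9% of all genes called, and with library totals set equal 4 were lower and 2 higher at each temperature. Cold called 1 of them, Elavl1, by 0.30 in DPP4+ cells (adjusted p = 8.35e-05, limma), where 46.1% of all genes were called. Of 8 genes known from Cxcl12-producing niche cells, cold called 4 lower and 1 higher in DPP4+ cells (4 and 0 with library totals set equal) and 0 in DPP4- cells (1 lower without replicate 5 of DPP4+ cells at 6 °C), where 46.1% and 5.22% of all genes were called. Ebf3 was the gene that rose (log2 difference 0.25). Kitl, the stem cell factor gene, fell by 0.58 in DPP4+ cells (adjusted p = 4.22e-06, limma), Vcam1, an adhesion molecule gene, by 0.52, Foxc1, a transcription factor gene of bone marrow niche cells, by 0.93, and Ebf1 by 0.38. Against DPP4- cells 7 of the 8 were lower in DPP4+ cells at 6 °C and 6 at 22 °C (6 and 5 with totals set equal, with 1 and 2 higher), against the same background, with Kitl at 451 ± 55.8 normalized reads in DPP4+ cells and 9084 ± 1037 in DPP4- cells at 6 °C.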

How the data were processed

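RNA-seq of 20 libraries (PDGFRb+ cells sorted by DPP4) was analysed. An RNAqueous micro kit and a NEBNext Ultra II kit were used, per the labels. The submitters' processing notes name DESeq2 1.6.3, featureCounts 1.4.6, HISAT2 2.0.1 and Trim Galore 0.4.1 and the builds GRCm38 and mm10, without role or order; the strand setting is not given in the sources used here. Values are gene counts that the authors normalized before deposit (a deposited signal, with 1 factor per library). Each library's values are whole multiples of 1 step (100% of values, tolerance 0.1 read), which gave back the whole reads. Genes without a symbol (958) took 0.061 to 0.0824% of a library's reads and were kept by Entrez ID; 26 symbols turned into dates were restored from a RefSeq table.

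Testing covered genes averaging at least 10 normalized reads, on log2(value + 1) with limma 3.58.1 in R 4.3.3 (4 group means, 16 residual degrees of freedom, trend and robust), two-sided, with Benjamini-Hochberg adjustment over all genes in each of 5 contrasts and a threshold of 0.05. Ratios divide group means; log2 differences are fitted on the log2(value + 1) scale, which understates changes of low genes. All members were named in every contrast, and at most 4 genes per list, those with the smallest p, plus the 2 genes most like each member; some genes that meet these rules are not reported here. Members and lists were chosen with earlier results of these data known. Alternatives were other scalings, pseudocounts and minimum levels, sample weights, only the groups compared, a replicate block, each library left out, and edgeR 4.0.16 and DESeq2 1.42.0 on the whole reads. The limma and edgeR fits were tested on simulated data. Promoter windows (8 of 10 members matched) are from RefSeq, GRCm38.p6.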

Additional observations from a re-analysis of the deposited data

Results flagged for a closer look

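Single libraries stood far from the other 4 of their group, by a rule that chance meets in about 1 of 20 groups, for 3 ligands. Replicate 5 of DPP4- cells at 22 °C had 53795 normalized reads of Cxcl1, against 33937 to 35192 in the others. Replicate 5 of DPP4+ cells at 6 °C had 544 normalized reads of Cxcl5, against 806 to 880, and it was also the lowest of its group in Cxcl12 and Cxcl14. Replicate 3 of DPP4+ cells at 22 °C had 425 normalized reads of Cxcl14, against 486 to 502.

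The cold effect differed between the populations by the interaction term of the limma fit for 3 ligands, DPP4+ minus DPP4-, by 2.11 for Cxcl5, -1.28 for Cxcl12 and 2.96 for Cxcl14 on the log2 scale. All 5 cold DPP4+ libraries lay beyond all 5 DPP4+ libraries at 22 °C in each of these genes, while the DPP4- groups overlapped.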

How the results depend on the processing

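Over 32 alternatives the 50 member differences gave 1585 values, of which 1488 kept their direction and side of the threshold. Of 701 values of differences that were called, 684 kept both, 15 lost the call (all Cxcl13 at 22 °C between the populations, in 12 fits without a library, with a mean of at least 1, with sample weights and in edgeR) and 2 reversed. Those were Cxcl12 at 22 °C, 0.11 with library totals set equal and 0.12 with quantile normalization. The cause was not tested. The member count for cold in DPP4- cells was 1 with totals set equal, with a mean of at least 50 and in DESeq2, and 0 to 1 without a library. Called genes there numbered 1142 with totals set equal (915 higher, 227 lower, against 259 and 422), 392 with only the groups compared and 434 with sample weights, against 681; for the difference of the cold effects totals set equal gave 1128 higher and 3060 lower, against 2192 and 2137.

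Differences that were not called reversed as follows. With totals set equal, Cxcl1 (cold, DPP4+) was -0.04, Cxcl16 (cold, DPP4-) 0.01, Cxcl13 between populations at 6 °C 0.45, and at 22 °C Cxcl2 0.51 and Cxcl5 0.55. With quantile normalization, Cxcl1 (cold, DPP4+) was -0.07, the difference of effects 0.08 for Cxcl9 and 0.24 for Cx3cl1, between populations at 6 °C Cxcl13 0.11 and Cx3cl1 -0.02, and at 22 °C Cxcl2 0.01 and Cx3cl1 -0.26. With sample weights, cold in DPP4+ gave Cxcl1 -0.02 and Cxcl2 0.02, the difference of effects Cx3cl1 0.15, Cxcl13 at 6 °C 0.04 and Cx3cl1 at 22 °C -0.08. With a pseudocount of 5 the difference of effects of Cxcl9 was 0.01 and Cx3cl1 at 6 °C -0.03, and with TMM Cx3cl1 at 6 °C was -0.005. In edgeR Cxcl1 (cold, DPP4+) was -0.05, Cxcl9 (difference of effects) 0.0003, and Cx3cl1 -0.12 at 6 °C and -0.02 at 22 °C; in DESeq2 these were -0.05 for Cxcl1 and -0.15 and -0.02 for Cx3cl1.

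Without 1 library, cold in DPP4+ cells ranged from -0.12 to 0.17 for Cxcl1, -0.30 to 0.09 for Cxcl2 and -0.42 to 0.09 for Cxcl9, and in DPP4- cells from -0.57 to 0.02 for Cxcl5 and -0.59 to 0.04 for Cx3cl1. The difference of effects ranged from -0.26 to 0.24 for Cxcl9 and -0.34 to 0.29 for Cx3cl1. Between populations the range was -0.13 to 0.19 for Cxcl13 and -0.32 to 0.31 for Cx3cl1 at 6 °C, and -0.30 to 0.09 for Cxcl2, -0.17 to 0.08 for Cxcl5 and -0.16 to 0.13 for Cx3cl1 at 22 °C.

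Libraries of equal number had deviations correlated by 0.0166 to 0.107 between populations at 6 °C and 0.029 to 0.156 at 22 °C. For unequal numbers the range was -0.156 to 0.0409 at 6 °C and -0.109 to 0.0508 at 22 °C. Of 10 libraries, 7 at 6 °C and 6 at 22 °C correlated best with their own number. Between temperatures, 5 of 10 did so in DPP4+ cells and 5 of 10 in DPP4- cells. The labels state no pairing, so the main fit took none, and whether equal numbers are pairs was not settled. With the replicate block, 6013 genes were called for cold in DPP4+ cells, 709 for cold in the DPP4- population, 4317 for the difference, and 9694 and 9770 between populations at 6 °C and 22 °C; of the members 1 call changed, Cxcl2 at 6 °C (0.37, adjusted p = 0.0372). Calls gained elsewhere were Cxcl13 (cold, DPP4-), Cxcl16 (difference of effects) and, with totals set equal, Cxcl2 at 6 °C, as described above.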
